A study of Homo sapiens with 5 samples.

Results

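The subject is the set of nuclear genes that encode subunits of the oxidative phosphorylation system, the 5 protein complexes of the inner mitochondrial membrane. Members were chosen by gene name alone (NDUFA, NDUFB, NDUFC, NDUFS and NDUFV with a number, SDHA to SDHD, UQCR, CYC1, COX4 to COX8 and ATP5 with a letter), which gave 77 names among the 11976 genes of the authors' deposited table. The processed pseudogene UQCRFS1P1 was left out, so 76 members remained. Of these, 73 are subunits or close paralogues of subunits, with 33 in complex I, 4 in complex II, 8 in complex III, 14 in complex IV and 14 in complex V. The remaining 3 only carry a matching name: ATP5SL and ATP5S, which are not core subunits of the ATP synthase, and NDUFA6-AS1, a noncoding RNA beside NDUFA6.

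The comparison was ERF knockout against wild type in HUDEP-2 cells, a line of immortalised human erythroid progenitors that came from cord blood. ERF is an ETS-domain transcriptional repressor. Bulk RNA was sequenced from 3 libraries labelled ERF knockout, titled KO, and 2 libraries labelled wild type, titled SCR. The labels do not give the position of the edit, the number of clones, what SCR stands for or whether each library is a culture of its own. The p-values thus measure how far these samples spread, and that spread may be only technical. The authors' deposited table carried 0 columns of values per library, so every value below is a mean over libraries or a difference between the groups, and no library's depth is known. The labels do not state the culture stage of the cells. The name of the authors' comparison holds the term Pre, which is not explained. All 11 erythroid markers searched were listed, at means of 6.90 to 12.48 log2 CPM (CPM, counts scaled to library size). At an adjusted p below 0.05, 8 of them were higher in the libraries labelled knockout and 0 lower. Of all genes of at least 5 log2 CPM, 31.8% were higher and 24.4% lower. The 8 markers include the globin genes HBB, HBA1 and HBA2, and the direction is set below through another globin gene, HBG2. Of the other lineages, the table listed 1 of 4 megakaryocyte markers (ITGA2B, 7.26 log2 CPM), 1 of 4 mast cell and basophil markers (TPSAB1, 9.18 log2 CPM, higher), 1 of 5 monocyte and granulocyte markers (LYZ, 0.48 log2 CPM), 0 of 4 lymphoid and 0 of 3 stem and progenitor markers. The part of these shifts in the results below was not tested.

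No header or label says which group the fold changes were taken over. The sign was set so that the γ-globin gene HBG2 is higher in the knockout, since the title of the series has γ-globin expression return upon ERF inactivation, and the deposited values were multiplied by -1. HBG2 then stood at a log2 fold change of 1.88 ± 0.22 SE in the authors' deposited table (edgeR adjusted p = 7.64e-05), where SE is the standard error derived here from the F statistic. In the libraries labelled knockout ERF itself was 1.85-fold higher, at 0.89 ± 0.07 SE in the authors' deposited table, which goes against the label as far as RNA can show it. If the sign is the other way round, each "higher" below becomes "lower" and the reverse, while the sizes, the tests and the contrasts between subunits stay. Each direction below is therefore that of the libraries labelled knockout under the sign set through HBG2.

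Oxidative phosphorylation passes electrons from NADH and succinate along complexes I to IV to oxygen and uses the proton gradient that results to make ATP at complex V. A few subunits are encoded in mitochondrial DNA, and the nuclear genome supplies the rest, which are imported and assembled in modules with the help of dedicated assembly factors. Erythroid progenitors carry mitochondria that also supply heme synthesis, and they clear them when red cells mature. Promoters of nuclear subunit genes are known for binding sites of NRF1, of the ETS-family factor GABP and of YY1.

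Because ERF and GABP share the ETS core motif, promoters were read first. The printed windows cover 150 bases before and 30 bases after an annotated start, from RefSeq on GRCh38.p14, 5′ to 3′ on the gene's strand. Capitals mark each match to CCGGAAG (ETS) or AAGATGGC (YY1) on either strand, so CTTCCGG is the reverse strand of the first. ATP5J, COX6B1 and NDUFB7 are shown as the subunit genes with an ETS match that passed the test as higher, and ATP5E and COX7A2L as the largest rise in complex V and the fall with the smallest adjusted p, which hold no match. COX7A2L has a second annotated start, which holds none either, and so does ATP5J, whose second window also holds CCGGAAG.
ATP5J, chr21:25735025-25735204, minus strand: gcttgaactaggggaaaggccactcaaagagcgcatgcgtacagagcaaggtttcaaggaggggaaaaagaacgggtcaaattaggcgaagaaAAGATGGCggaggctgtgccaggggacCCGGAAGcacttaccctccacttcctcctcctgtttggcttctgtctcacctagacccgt
COX6B1, chr19:35648173-35648352, plus strand: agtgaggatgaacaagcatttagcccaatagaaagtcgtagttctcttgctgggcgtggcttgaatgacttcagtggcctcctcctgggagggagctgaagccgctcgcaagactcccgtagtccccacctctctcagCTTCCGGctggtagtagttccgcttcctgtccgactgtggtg
NDUFB7, chr19:14572037-14572216, minus strand: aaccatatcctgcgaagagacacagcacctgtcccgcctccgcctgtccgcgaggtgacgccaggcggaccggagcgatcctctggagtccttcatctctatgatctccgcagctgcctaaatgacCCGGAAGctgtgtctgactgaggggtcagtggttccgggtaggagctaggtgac
ATP5E, chr20:59032306-59032485, minus strand: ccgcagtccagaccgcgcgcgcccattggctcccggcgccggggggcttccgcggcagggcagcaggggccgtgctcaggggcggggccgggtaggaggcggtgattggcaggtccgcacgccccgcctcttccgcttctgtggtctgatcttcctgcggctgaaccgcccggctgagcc
COX7A2L, chr2:42368928-42369107, minus strand: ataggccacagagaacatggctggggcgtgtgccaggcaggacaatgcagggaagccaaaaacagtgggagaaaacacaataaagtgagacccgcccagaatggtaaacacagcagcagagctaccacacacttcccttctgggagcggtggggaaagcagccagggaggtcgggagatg

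Of the 73 subunit genes, 58 were found in the promoter table, which gives 250 bases before and 50 bases after each start. CCGGAAG, on either strand, was present for 17 of 58 (29.3%), against 24.5% of 8786 protein-coding genes listed in both tables. AAGATGGC was present for 11 (19%), against 7.12%, and the palindromic NRF1 consensus site for 4 (6.9%), against 2.95%. CCGGAAG and AAGATGGC share no bases in the printed windows. A match describes letters and not a bound site, and a missing match says only that these letters are not in the window. Among the 17 genes with the ETS letters, 3 were higher, 1 was lower (NDUFS1) and 13 did not pass, with a median log2 fold change of 0.06. The 41 without them had 13 higher, 5 lower and the same rounded median of 0.06. Both medians equal that of all 73 subunits to 2 decimals.

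Most subunit genes differed little between the groups. In the authors' deposited table, 28 of 76 members (36.8%) had an adjusted p below 0.05 (edgeR quasi-likelihood test with Benjamini-Hochberg adjustment), with 20 genes higher in the libraries labelled knockout and 8 lower. Over all genes the same threshold was passed by 50.9%, with 24.9% higher and 25.9% lower. Members are mostly well expressed, and among genes with a mean of at least 5 log2 CPM the shares were 56.2% called, 31.8% higher and 24.4% lower, beside 22 of 52 members called, 17 higher and 5 lower. The share of members called higher was thus close to the background, and the share called lower, 10.5%, was below it. The median log2 fold change of the members was 0.06, against 0.00 over all genes (-0.0019) and 0.03 over genes of at least 5 log2 CPM. The median absolute value was 0.15 for members, 0.21 for all genes and 0.16 for the well expressed ones. In bulk RNA, fewer cells of a type and less RNA per cell cannot be told apart.

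**Figure D1:**
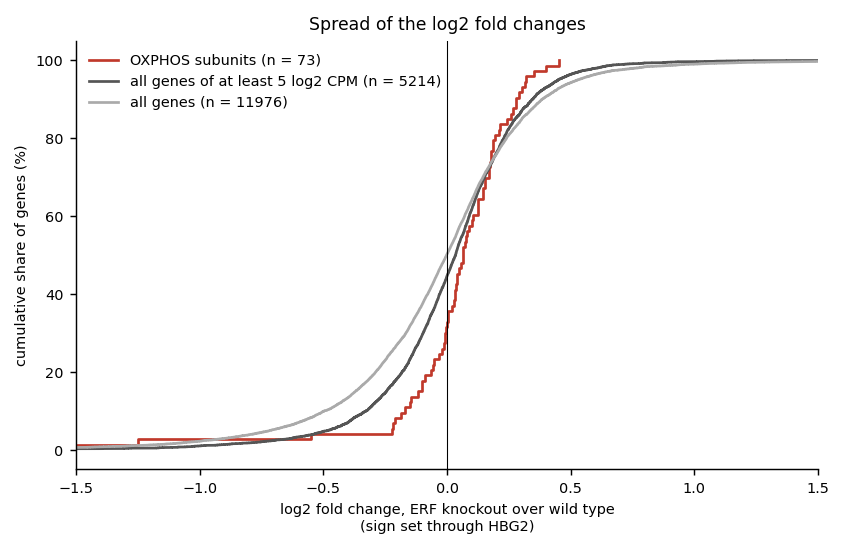
Cumulative share of genes (vertical axis, %) by log2 fold change of ERF knockout over wild type (horizontal axis), for 73 OXPHOS subunits, 5214 genes of at least 5 log2 CPM and all 11976 genes. The subunit curve rises over a narrow range to the right of 0, from its lower quartile at -0.02 to its upper quartile at 0.18, and its left tail consists of 3 genes below -0.5; values beyond 1.5 in either direction lie outside the axis.

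A group of 3 genes stood apart from this narrow range: NDUFA4L2, COX6B2 and COX7A2L, an isoform and 2 paralogues of other subunits, all lower. The other 70 subunits lay between -0.22 and 0.45. In the plot of log2 fold change against expression, NDUFA4L2 and COX6B2 are also among the least expressed members, whereas COX7A2L is not.

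Levels differed far more between subunit genes than between the groups. Per kilobase of transcript, as a mean over all 5 libraries, the F1 head subunits ATP5B (9.68) and ATP5A1 (9.27 log2 CPM per kb) were the highest, followed by UQCRC2 (8.58) and COX4I1 (7.92). The lowest were NDUFA4L2 (-0.85), NDUFB8 (1.197), NDUFA11 (1.68), COX6B2 (2.02) and NDUFC2 (2.36 log2 CPM per kb). Of these, NDUFB8, COX6B2 and NDUFC2 share at least 10% of their exonic bases with another gene on the same strand. The order depends in part on annotation, because length was the median over annotated protein-coding transcripts. It was 586 nt for UQCRC2 and 1985 nt for UQCRC1. Their levels were 7.81 and 7.34 log2 CPM before division by length, and 8.58 and 6.35 after.

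**Figure D2:**
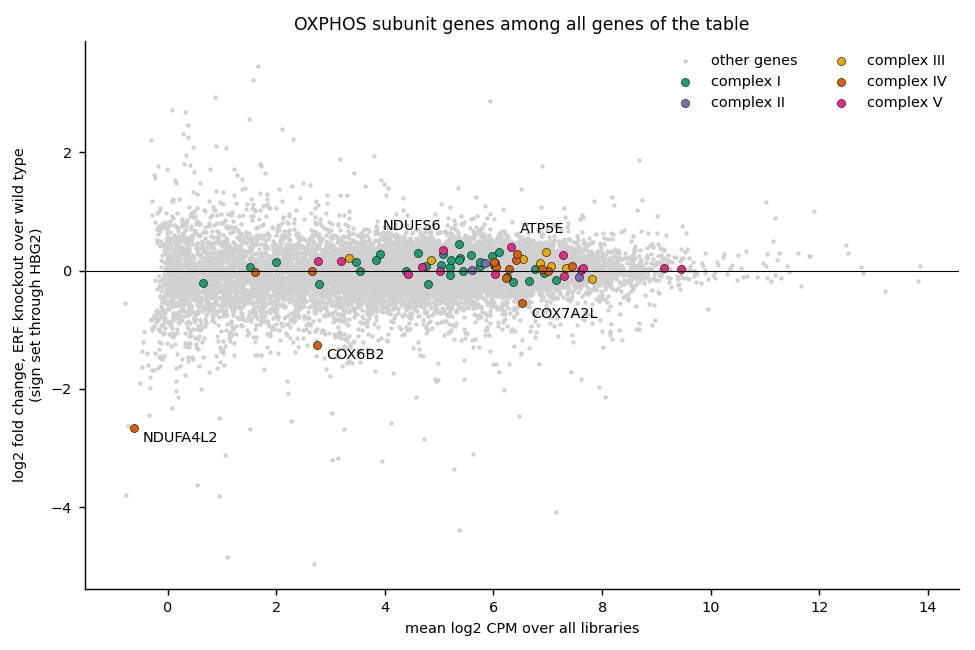
Log2 fold change of ERF knockout over wild type (vertical axis) against mean log2 CPM over all libraries (horizontal axis) for all genes in grey and for the subunits coloured by complex. The subunits form a band near 0, with NDUFA4L2 at -2.66, COX6B2 at -1.25 and COX7A2L at -0.55 below it and NDUFS6 (0.45) and ATP5E (0.40) at its upper edge.

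Complex I, the NADH dehydrogenase, held the most called members: 11 of 33 were higher and 4 lower, and the median was 0.09. Complex I is also the largest complex. Its share called was 45.45%, beside 50.9% of all genes and 56.2% of genes of at least 5 log2 CPM. Its subunits fall into an N module that oxidises NADH, a Q module that reduces ubiquinone, and a proximal and a distal membrane arm. The 11 that were higher are all accessory subunits, which surround a conserved core that carries the flavin and the iron-sulfur clusters. Most measured members are accessory, 27 against 6 core subunits. Higher were 11 of 27 accessory (40.7%) and 0 of 6 core subunits, beside 24.9% of all genes and 31.8% of genes of at least 5 log2 CPM.

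Among the core subunits, NDUFV1, which binds the flavin, stood at -0.17 ± 0.04 SE in the authors' deposited table (1.13-fold lower, edgeR adjusted p = 0.0077). NDUFS1, the largest subunit, stood at -0.15 ± 0.05 SE in the authors' deposited table (1.11-fold lower, edgeR adjusted p = 0.0256). The 95% intervals of NDUFV1 (-0.27 to -0.07) and NDUFS1 (-0.26 to -0.04) overlap. The iron-sulfur subunits NDUFS7 (-0.07) and NDUFS8 (0.09) and the core subunit NDUFS3 (0.0014) did not pass the test in the authors' deposited table. NDUFV2, a further core subunit, was not analysed here.

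The N module moved in both directions. NDUFS6, a zinc-binding accessory subunit that joins late in assembly, had the largest rise of all members, 0.45 ± 0.07 SE in the authors' deposited table (1.37-fold higher, edgeR adjusted p = 0.000521). NDUFV3 rose by 0.27 in the authors' deposited table (edgeR adjusted p = 0.00401). NDUFS4, an accessory subunit whose loss causes Leigh syndrome, was the member of this module with the largest fall, -0.22 ± 0.06 SE in the authors' deposited table (1.17-fold lower, edgeR adjusted p = 0.0154). The intervals of NDUFS6 (0.29 to 0.61) and NDUFS4 (-0.36 to -0.08) do not meet, which already follows from their calls in opposite directions. NDUFA2 (0.15) and NDUFA12 (0.07) did not pass in the authors' deposited table.

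The distal membrane arm, made of the NDUFB subunits, held no fall that passed: 6 of its 11 measured members were higher, and its median was 0.16. The share called, 54.55%, was near the 50.9% of all genes and the 56.2% of genes of at least 5 log2 CPM. Higher alone were 24.9% and 31.8% of these genes. NDUFB10 stood at 0.29 ± 0.08 SE in the authors' deposited table, NDUFB1 at 0.28 and NDUFB4 at 0.24, the last with the smallest adjusted p of the arm (0.00112, edgeR). NDUFB3 and NDUFB7 (both 0.18) and NDUFB11 (0.16) passed by less in the authors' deposited table. NDUFB7, at an adjusted p of 0.049 (edgeR), was the called member nearest the threshold. The count depends on centring: once values were centred on the median of genes at or above 5 log2 CPM, NDUFB11 (adjusted p = 0.0874 from the authors' edgeR values), NDUFB3 (0.0893) and NDUFB7 (0.1) no longer passed. NDUFB5 then passed as lower, at -0.14 (adjusted p = 0.0436 from the authors' edgeR values), so the arm held 3 higher and 1 lower. Without centring, the 5 that did not pass ran from -0.21 (NDUFB8) to 0.10 (NDUFB9) in the authors' deposited table.

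In the proximal membrane arm, 2 of 8 members were higher (25%) and none was lower, beside 24.9% and 25.9% of all genes. The authors' deposited table gave NDUFS5, a small intermembrane-space subunit, at 0.32 ± 0.05 SE (1.25-fold higher, edgeR adjusted p = 0.000374) and NDUFC1 at 0.30 ± 0.07 SE (edgeR adjusted p = 0.00372). The remaining 6 ran from -0.22 (NDUFA11) to 0.17 (NDUFA3) in the authors' deposited table and did not pass. In the Q module, NDUFA6 was the 1 accessory member that passed, at 0.21 ± 0.05 SE in the authors' deposited table (edgeR adjusted p = 0.00412), and NDUFA5 (0.03) and NDUFA9 (0.15) did not. NDUFA7 and NDUFA13 were not analysed here.

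**Figure D3:**
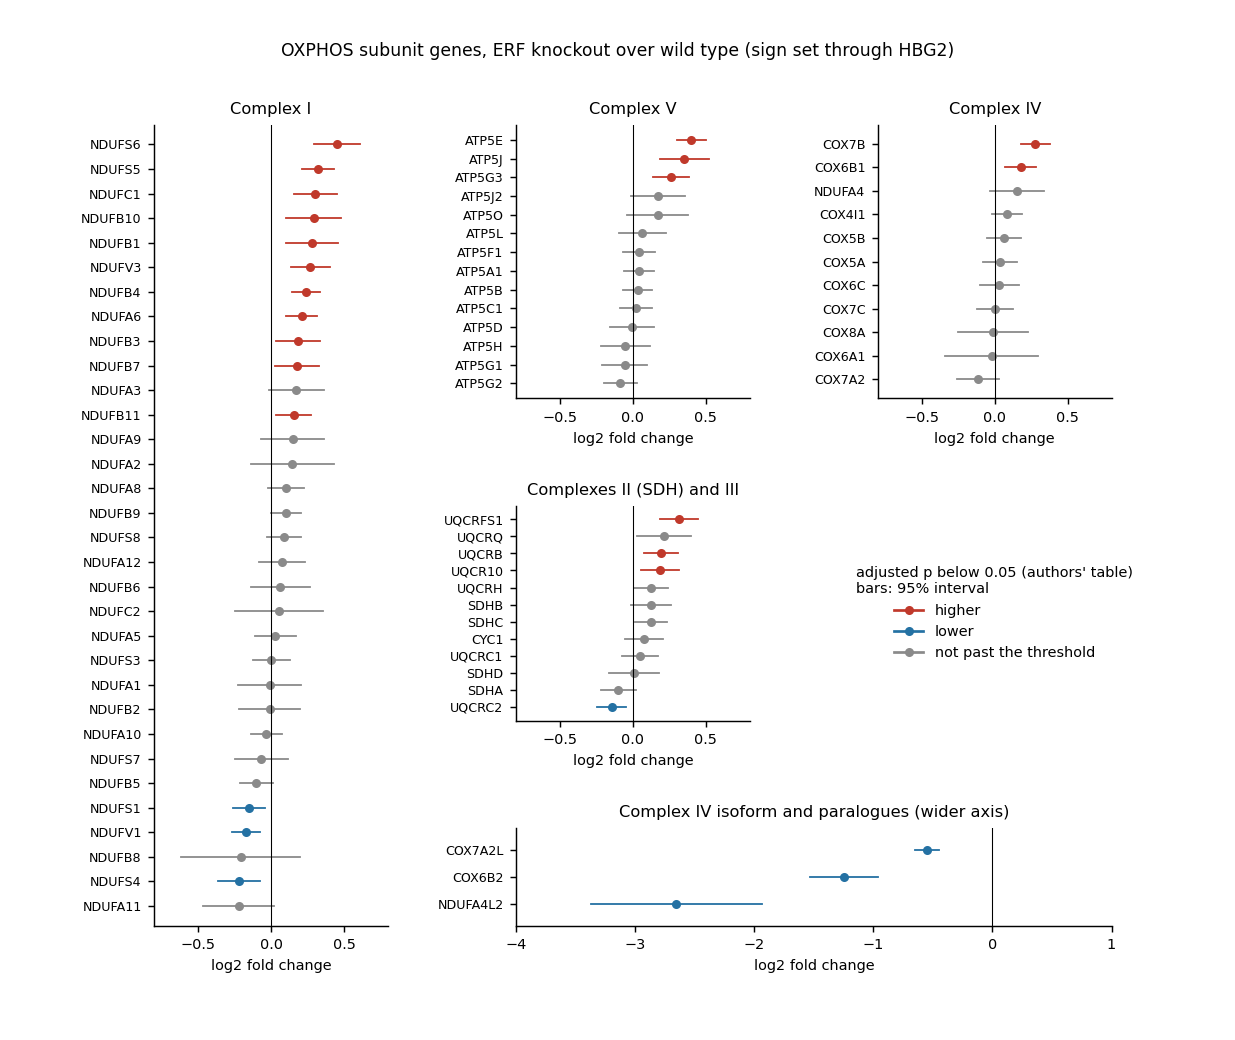
Log2 fold change of ERF knockout over wild type (horizontal axes) for the subunit genes reported here, one panel per complex or pair of complexes; dots are the sign-adjusted values of the authors' table, bars their 95% intervals derived from the F statistic, and colours the calls at an adjusted p below 0.05. Most intervals cross 0, the 11 higher complex I genes are among the topmost of their panel, between 0.16 and 0.45, with NDUFA3 (0.17, not past) among them, and NDUFA4L2, COX6B2 and COX7A2L are drawn on a wider axis.

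Complex II, succinate dehydrogenase, is the 1 complex with no subunit from mitochondrial DNA. It had no called member: 0 of 4 passed the adjusted test, beside 50.9% of all genes. SDHC, a membrane anchor, was the nearest to it, at 0.12 in the authors' deposited table with a 95% range of 0.01 to 0.24 (edgeR adjusted p = 0.0627). SDHB, the iron-sulfur subunit, stood at 0.13, the flavoprotein SDHA at -0.10 and the anchor SDHD at 0.0048 in the authors' deposited table. At an unadjusted p below 0.05, 1 of the 4 passed. Together the 95% intervals of the 4 genes spanned -0.22 to 0.26.

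Complex III, the cytochrome bc1 complex, had 7 positive values of 8: 3 genes were higher and 1 was lower, with a median of 0.16. Values were positive for 49.7% of all genes and 55.3% of genes of at least 5 log2 CPM. The share called, 50%, was near the 50.9% of all genes. Among the 5 members whose exons overlap no other gene, 1 was higher and 1 lower, and the median was 0.0778. UQCRFS1, the Rieske iron-sulfur protein, which is inserted last in assembly, had the largest rise at 0.31 ± 0.06 SE in the authors' deposited table (1.24-fold higher, edgeR adjusted p = 0.00129). Its processed pseudogene UQCRFS1P1 stood at 0.66 ± 0.28 SE in the authors' deposited table and did not pass, and reads that fit both cannot be assigned. The small supernumerary subunits UQCRB and UQCR10 both stood at 0.19 in the authors' deposited table (edgeR adjusted p = 0.0118 and 0.0207). UQCRQ, at 0.21 in the authors' deposited table with an adjusted p of 0.0515 (edgeR), was the member just outside the threshold. UQCRC2, a core protein of the matrix side, fell by 0.15 ± 0.04 SE in the authors' deposited table (edgeR adjusted p = 0.0198), while its partner UQCRC1 (0.05) and the heme protein CYC1 (0.08) did not pass. UQCRH stood at 0.13 in the authors' deposited table (edgeR adjusted p = 0.0657); its copy UQCRHL and UQCR11 were not analysed here.

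Complex IV, cytochrome c oxidase, reduces oxygen at the end of the chain. Of its 14 members, 2 were higher (14.3%) and 3 lower (21.4%), beside 24.9% and 25.9% of all genes. The median was 0.02, or -0.02 once values were centred on the median of genes at or above 5 log2 CPM. COX7B rose by 0.28 ± 0.05 SE in the authors' deposited table (1.21-fold higher, edgeR adjusted p = 0.000606), and COX6B1, the ubiquitous subunit that faces the intermembrane space, by 0.18 ± 0.05 SE (edgeR adjusted p = 0.0109). The subunits COX4I1 (0.08), COX5A (0.04) and COX5B (0.06), which surround the catalytic core, did not pass in the authors' deposited table, nor did NDUFA4 (0.15), once assigned to complex I and now counted here.

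The 3 genes that fell in complex IV are an isoform and 2 paralogues. COX6B2, the isoform of COX6B1 known from testis, was 2.38-fold lower, at -1.25 ± 0.13 SE in the authors' deposited table (edgeR adjusted p = 3.4e-05), against 0.18 for COX6B1. Their 95% intervals, -1.54 to -0.96 for COX6B2 and 0.07 to 0.29 for COX6B1, lie on opposite sides of 0, as their calls already imply. NDUFA4L2, the paralogue of NDUFA4 and a known target of hypoxia-inducible factor 1, was 6.3-fold lower, at -2.66 ± 0.32 SE in the authors' deposited table (edgeR adjusted p = 9.83e-05), against 0.15 for NDUFA4. In the authors' deposited table its mean level was -0.62 log2 CPM, near the lower end of the table at -0.79, and the authors' deposited table gave HIF1A RNA, chosen after its value was seen, as higher at 0.19 (edgeR adjusted p = 0.0113). The part of HIF1A in the value of NDUFA4L2 was not tested.

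COX7A2L, also called SCAF1, joins complexes III and IV in supercomplexes. It had the smallest adjusted p of all members (8.08e-06, edgeR) and stood at -0.55 ± 0.05 SE in the authors' deposited table, 1.47-fold lower. Its paralogue COX7A2 stood at -0.12 ± 0.07 SE in the authors' deposited table and did not pass. The intervals of COX7A2L (-0.65 to -0.45) and COX7A2 (-0.26 to 0.03) do not meet. In human cells, COX7A2L is known to be induced through the PERK and ATF4 branch of the stress response. ATF4 RNA, chosen after its value was seen, stood at -0.88 ± 0.05 SE in the authors' deposited table (edgeR adjusted p = 3.90e-07), and its part in the value of COX7A2L was not tested. COX7A1, COX6A2 and COX4I2 were not analysed here.

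Complex V, the ATP synthase, had 3 of 14 genes called (21.4%), all higher, with a median of 0.04. Over all genes 50.9% were called and 24.9% higher, and among genes of at least 5 log2 CPM 56.2% and 31.8%. The exons of all 3 called members overlap other genes: among the 7 members without such overlap, 0 were higher, 0 were lower and the median was -0.0047. In the F1 head, ATP5B, the catalytic β subunit, stood at 0.03, ATP5A1 at 0.04 and ATP5C1, the rotating γ subunit, at 0.02 in the authors' deposited table, each ± 0.05 SE and none past the threshold. ATP5D, the δ subunit of the central stalk, stood at -0.0047 in the authors' deposited table. The 95% intervals of the first 3 lay between -0.09 and 0.15. ATP5E, the small ε subunit of the central stalk, rose by 0.40 ± 0.04 SE in the authors' deposited table (1.32-fold higher, edgeR adjusted p = 5.68e-05). ATP5J, of the peripheral stalk, rose by 0.35 ± 0.08 SE in the authors' deposited table (1.28-fold higher, edgeR adjusted p = 0.00328). The other stalk members ATP5F1 (0.04), ATP5O (0.17) and ATP5H (-0.05) did not pass in the authors' deposited table.

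The c ring that turns in the membrane is encoded by 3 genes whose mature proteins are known to be identical. ATP5G3 rose by 0.26 ± 0.06 SE in the authors' deposited table (1.2-fold higher, edgeR adjusted p = 0.0029), whereas ATP5G1 (-0.06) and ATP5G2 (-0.09) did not pass. The interval of ATP5G3, 0.14 to 0.38, does not meet that of ATP5G2, -0.20 to 0.03, nor that of ATP5G1, -0.21 to 0.09. Among the membrane subunits, ATP5J2 (0.17) and ATP5L (0.06) did not pass in the authors' deposited table, and ATP5I was not analysed here.

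**Figure D4:**
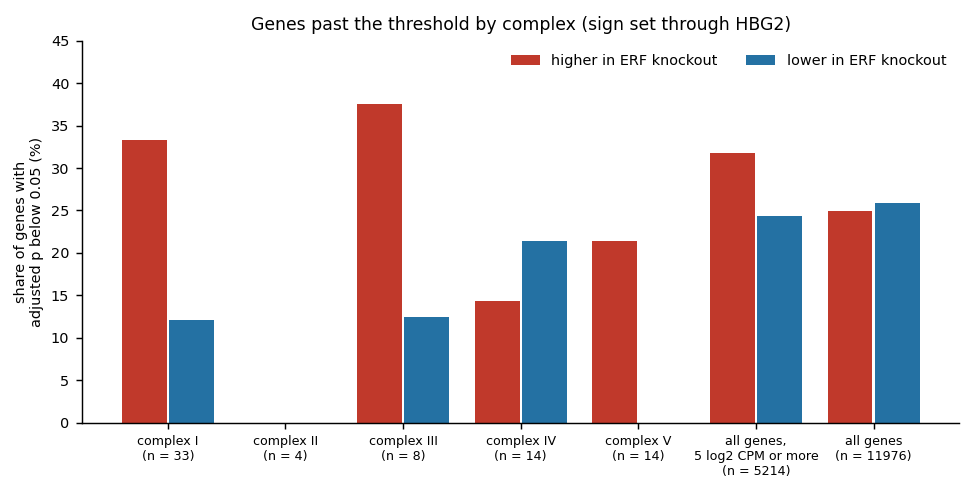
Share of genes with an adjusted p below 0.05 (vertical axis, %) that were higher (red) or lower (blue) in ERF knockout, by complex and over all genes. Complex III had 37.5% higher and complex I 33.3%, beside 24.9% of all genes and 31.8% of genes of at least 5 log2 CPM; complex II had no called gene, complex V none that was lower, and the complex IV genes that were lower are NDUFA4L2, COX6B2 and COX7A2L.

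The 3 matching names that are not subunits did not move alike. ATP5SL, known to act in complex I assembly, was higher at 0.20 ± 0.05 SE in the authors' deposited table (edgeR adjusted p = 0.00948). ATP5S stood at -0.20 and NDUFA6-AS1 at 0.38, neither of them passing in the authors' deposited table.

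Several members share genomic sequence with other genes, and whether reads were counted by strand is not known. In the GENCODE v29 annotation, which is on GRCh38 and not the GRCh37 build named in the processing notes, 33 of 73 subunit genes have exons that overlap another gene. For 11 of them the overlap on the same strand covers at least 10% of their exonic bases. Of these 11, 0 were higher and 2 lower (18.2%), beside 24.9% and 25.9% of all genes. Only 2 of the 11 reach 5 log2 CPM, and of all members under that level 12.5% were higher and 12.5% lower. The median level of the 11 per kilobase of transcript was 3.64 log2 CPM per kb, against 6.26 for the other 62. NDUFB8, with 65.5% of its exonic bases shared, and ATP5O, with 70.3%, belong here, and their values are uncertain. COX6B2 shares 30.4% and NDUFV1 16.7% on the same strand.

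ATP5G3 shares 1.66% on the same strand and 6.93% on the opposite strand. On the opposite strand, ATP5E shares 23.2% of its exonic bases with TUBB1, which the authors' deposited table gave as higher at 0.87. ATP5J shares 31.1% with its neighbours, which include GABPA, the ETS subunit of GABP, at 0.12 in the authors' deposited table and not past the threshold. NDUFA4L2 shares 2.2% with SHMT2, a mitochondrial serine enzyme that stood at -0.83 in the authors' deposited table at 7.67 log2 CPM. The part of these overlaps in the values was not tested. Without every overlapping gene, 12 of 40 subunits were higher (30%) and 4 lower (10%), and the median was 0.07. Over all genes the shares were 24.9% and 25.9%. Moreover, 43 of 73 subunit genes have at least 1 named pseudogene in GENCODE v29, and COX6C has 17. The table sets reads without a unique alignment apart in a row of their own.

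Subunit transcripts are short, with a median length of 712 nt against 1807 nt over protein-coding genes, and length was set beside the change. Across the 73 subunit genes, Spearman's rho of log2 fold change with length was -0.15, and across 10632 protein-coding genes it was -0.01. The values of one comparison share all 5 libraries, and genes are not independent replicates. Subunits under 1000 nt had 14 of 55 higher and 4 lower, and those of 1000 nt or longer had 5 of 18 higher and 4 lower. The shares higher, 25.5% and 27.8%, were close to the 26.1% and 26.9% of all protein-coding genes of these lengths. The shares lower were 7.27% and 22.2%, beside 23.2% and 26.1%.

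Genes that work with the subunits were described by lists. Over all genes, 24.9% were higher and 25.9% lower. Of 5 subunits or bound proteins that the name rule misses, 4 were higher and none lower, with a median of 0.20. They are USMG5 (0.36) and C14orf2 (0.20) of the ATP synthase, NDUFAB1 (0.29), the acyl carrier protein of complex I, and HIGD1A (0.19), a small protein that binds complex IV, in the authors' deposited table. HIGD2A stood at -0.06 in the authors' deposited table and did not pass. CYCS, the cytochrome c that carries electrons from complex III to complex IV, rose by 0.46 ± 0.07 SE in the authors' deposited table (1.38-fold higher, edgeR adjusted p = 0.000408), and ATPIF1, the inhibitor of the ATP synthase, stood at -0.15 (edgeR adjusted p = 0.051).

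The SD of log2 fold changes of assembly factors was 0.26 over 53 genes, against 0.39 over all 73 subunits. Without NDUFA4L2, COX6B2 and COX7A2L, left out after their values were seen, it was 0.15 over 70 subunits. No difference in SD was tested. Median levels were 4.42 log2 CPM for the assembly factors and 5.75 for the 73 subunits. Of the 53, 14 were higher (26.4%) and 11 lower (20.8%), near the 24.9% and 25.9% of all genes. Of 17 complex I assembly genes, 6 were higher and 2 lower, with NDUFAF4 the largest rise (0.56) and COA1 the largest fall (-0.30) in the authors' deposited table. Of 22 complex IV assembly genes, 6 were higher and 5 lower, with COA7 at 0.63 and the copper-related factor COX19 at -0.35 in the authors' deposited table.

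For complex III, TTC19, which clears fragments of the Rieske protein, was 1.47-fold lower, at -0.56 ± 0.05 SE in the authors' deposited table (edgeR adjusted p = 1.11e-05), beside the rise of UQCRFS1. UQCC2 was higher at 0.18, and UQCC1 (0.12), C11orf83 (0.09), LYRM7 (-0.10) and BCS1L (-0.10) did not pass in the authors' deposited table. For complex II, C6orf57, also known as SDHAF4, was lower at -0.40, while ACN9 (0.14), SDHAF1 (0.16) and SDHAF2 (0.27) did not pass in the authors' deposited table. For complex V, TMEM70 was higher at 0.41, ATPAF2 (-0.28) and TMEM242 (-0.40) were lower, and ATPAF1 (0.05) did not pass in the authors' deposited table.

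Of 12 measured regulators of mitochondrial biogenesis, 5 were higher (41.7%) and 1 lower (8.33%), and the median was 0.13. Over all genes the shares were 24.9% higher and 25.9% lower. In either direction, 50% of the regulators and 50.9% of all genes were called. TFB2M, needed to start transcription of mitochondrial DNA, rose by 0.47 ± 0.06 SE in the authors' deposited table (edgeR adjusted p = 7.96e-05), and its relative TFB1M fell by 0.22. Named after their values were seen, PPRC1 (0.44), PPARGC1B (0.25), GABPB1 (0.36), the partner of GABPA, and TFAM (0.18) were higher in the authors' deposited table. In the authors' deposited table, NRF1 (0.07), GABPA (0.12) and YY1 (0.04), whose motifs were read in the promoters, did not pass.

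The counts of the following lists stand beside 24.9% higher and 25.9% lower over all genes. Of 13 genes for coenzyme Q, the electron carrier of the membrane, 4 were higher and 2 lower, with PDSS1 at 0.38 and ADCK4 at -0.47 in the authors' deposited table. The TCA cycle, which supplies NADH and succinate, had 2 of 13 higher and 3 lower, with OGDH at 0.34 and DLD at -0.34 in the authors' deposited table. Import, porin and membrane-shape genes had 7 of 16 higher and 4 lower, with the receptor TOMM22 at 0.49 and the motor subunit TIMM44 at -0.37 in the authors' deposited table. Of the 13 subunits encoded in mitochondrial DNA, 5 were higher (38.5%) and none lower, beside 31.8% and 24.4% of genes of at least 5 log2 CPM, with a median of 0.17, and the largest called rise was MT-CO2 at 0.30 in the authors' deposited table.

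**Figure D5:**
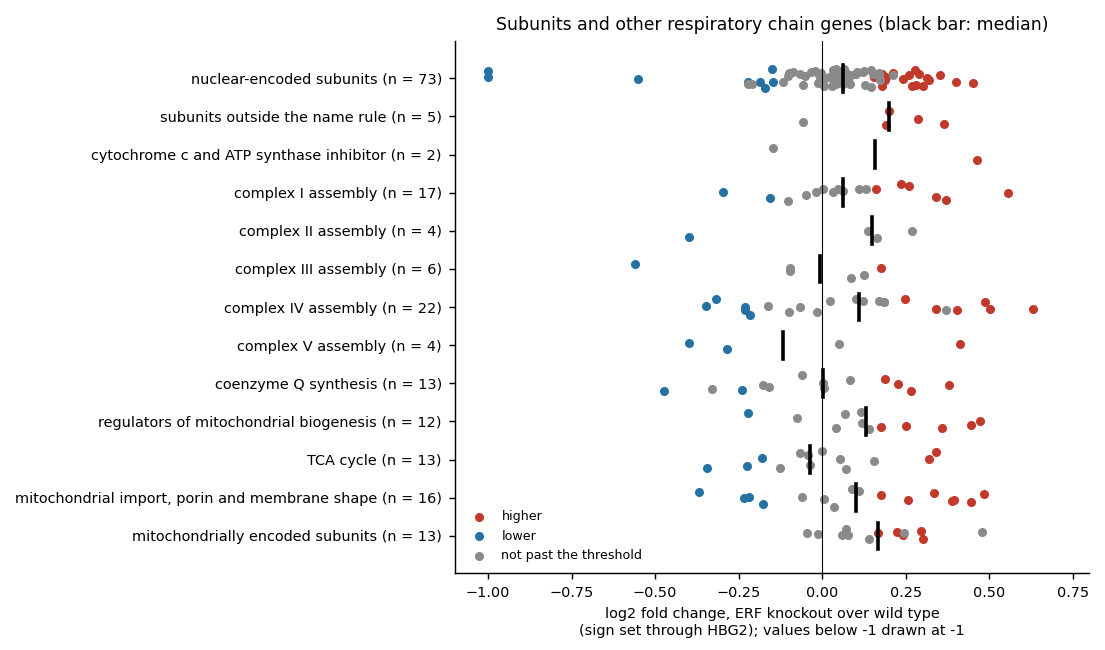
Log2 fold change of ERF knockout over wild type (horizontal axis) of each gene in the 73 nuclear-encoded subunits and in 12 lists of related genes, coloured by call, with the median as a black bar. Medians range from -0.12 for complex V assembly to 0.20 for subunits outside the name rule, and each of the longer lists holds genes on both sides of 0; values below -1 are drawn at -1.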

How the data were processed

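Bulk RNA-seq of 3 ERF knockout and 2 wild-type HUDEP-2 libraries was analysed from a single table of the authors' comparison. Per the labels' protocols, Trizol was used for RNA and an Illumina TruSeq RNA kit for the libraries. The authors' tools, per the submitters' processing notes, were edgeR 2.6.12, HTSeq, TopHat2 2.0.4, Cuffdiff and SAMtools, with hg19/GRCh37 as the genome build and no roles stated. Per the file headers, each gene of the deposited table has its log2 fold change and mean log2 CPM, an F score, its p-value and its adjusted p-value. The columns have the form of the authors' edgeR quasi-likelihood output, though no source says which version made them. How genes were filtered and values normalized is stated nowhere in the labels or the header. Of 11979 rows, 3 name no gene and hold 21.5% of the CPM; they were left out of every count but are part of the authors' adjustment. Deposited adjusted p-values differed by at most 0.676% from Benjamini-Hochberg values recomputed over all rows.

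As the table holds only a comparison, the deposited adjusted p with a threshold of 0.05 was used and no model was fitted again. Log2 fold changes were multiplied by -1 so that HBG2 is higher in the knockout. Standard errors are the size of the log2 fold change over the square root of F. The 95% intervals use 10.3 degrees of freedom, as implied by F and p together; more degrees of freedom than 5 libraries mean that part of the spread is shared across genes. These are approximations, because fold changes from edgeR, as run by the authors, are moderated. The derivation was tested on simulated data. Gene types, transcript lengths (median over protein-coding transcripts), exon overlaps and pseudogenes came from GENCODE v29, matched by gene ID, and promoters from RefSeq (GRCh38.p14), matched by symbol. Python 3.11.15, pandas 2.3.3 and SciPy 1.17.1 were used.

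Genes were named by rule: per complex, the called members with the largest changes, core subunits, paralogues, members nearest the threshold and matched names that are not subunits; per list, the largest called rise and fall. Other members, partners of overlapping genes, ATF4 and HIF1A were named after their values were seen. The members and lists were chosen with earlier results of these data known, so no list test was made. Alternatives covered the threshold, the adjustment, centring, a minimum fold, a minimum expression and the choice of members. The result of 1 gene is not reported here, though it is part of the counts.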

Additional observations from a re-analysis of the deposited data

How the results depend on the processing

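Of 76 members, 20 were called higher and 8 lower. At an adjusted p below 0.01 the counts were 12 higher and 5 lower, and with a minimum fold of 1.2 they were 10 and 3. With a minimum of 5 log2 CPM, 17 of 52 were higher and 5 lower. In settings chosen after seeing the data, 12 were higher and 4 lower among the 40 subunits without exon overlap, where the median of complex I became 0.18 and that of complex III 0.0778, and 5 were lower without NDUFA4L2, COX6B2 and COX7A2L. Fewer genes or a stricter rule can only lower these counts or leave them as they were. What moved the medians of complex I and complex III was not tested. A threshold of 0.1, adjustment over gene rows alone, centring and leaving out names that are not subunits kept both counts within 1.5 times. Centring on the median of genes at or above 5 log2 CPM, 0.0342, gave 17 higher and 10 lower and changed the sign of 7 members, none of them past the threshold. It ended the calls of NDUFB3, NDUFB7 and NDUFB11 and added NDUFB5 and ATP5S as lower, and the median of complex IV became -0.02. Without exon overlap, complex V had 0 of 7 higher in place of 3 of 14, and its median became -0.0047. No called member turned direction under any setting run, but none of these settings could have turned one. Only centring alters a fold change, by at most 0.0342, and the called member nearest 0, UQCRC2, stood at -0.15. No paired analysis was possible because the table holds no values per library; for the same reason leaving out single libraries was not run. The sign of every direction rests on HBG2, and depth per library is unknown.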
